A study of Microtus ochrogaster with 46 samples.

Results

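In the nucleus accumbens of prairie voles, 263 genes rose and fell with the vasopressin receptor gene Avpr1a from one female to the next. They were chosen from 14455 genes whose normalized counts averaged at least 10, out of 17479 genes in the deposited table. For the choice, each gene's log2 values in the 29 females were centred on the mean of the animal's own group, and genes were kept when Pearson's r with Avpr1a, centred in the same way, was 0.72 or more. Avpr1a itself was left out. The 17 males took no part in this r, but the average of at least 10 was taken over both sexes. It let in 5 genes with a female mean under 10.

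Avpr1a encodes the V1a receptor for arginine vasopressin, a G protein-coupled receptor that signals mainly through Gq proteins, phospholipase C and intracellular calcium. Vasopressin acting on this receptor in the ventral forebrain is known for its part in partner preference and social recognition in voles. The density of the receptor is also known to differ between vole species and between individual prairie voles.

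The study compared prairie voles (Microtus ochrogaster) of both sexes before and after pairing, with 1 RNA-seq library of a nucleus accumbens punch per animal. Naive animals had been housed for 3 weeks with a littermate of their own sex, and paired animals had spent either 24 h or 3 weeks with a partner of the opposite sex. By the sample titles the females numbered 10 naive, 10 paired for 24 h and 9 paired for 3 weeks, and the males 6, 6 and 5 in the same order; the description of the series counts 6 females at 3 weeks. No animal carried a transgene or a drug treatment in the labels, the labels hold no ages, and all libraries had received one or the other of a pair of synthetic spike-in mixes, with no label saying which.

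Estimated depth ran from 15.3 to 38.0 M reads (M for mega) per library, with a median of 29.2 M, and from 16054 to 16763 genes were above 0. The lowest values carried gene-specific normalization factors that put the libraries into a pair of patterns, a property of the deposited values and not a study group. All 6 males at 24 h and 26 of the females had pattern A, while the 6 naive males, the 5 males at 3 weeks and 3 females (24 h replicate 8, and 3 week replicates 3 and 7) had pattern B. On a scale with 0 at the median library of pattern A and 1 at the median male library of pattern B, these 3 females stood at 0.29, 0.20 and 0.45. The table names 1 gene, Avpr1a, by symbol. The reference gene table matched 0 of the other 17478 identifiers, so functions of the 263 genes, marker genes of the tissue or of other cell types, coordinates and sequences were not analysed here.

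The group was broad in its levels. Mean normalized counts of the 263 genes ran from 11.2 to 51500, with a median of 575 against 542 for the other tested genes, and 221 of them had a mean of at least 100. Female r, the value that chose them, ran up to 0.93 with a median of 0.79. The last genes inside the threshold had an r of 0.7212 and 0.7208, and the first genes outside it 0.7196 and 0.7193. These values describe the choice and were not tested.

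Avpr1a itself spanned a wide range within each female group. Its lowest, median and highest log2 levels were 4.10, 6.04 and 7.31 in naive females, 2.07, 5.81 and 7.51 in females at 24 h, and 1.90, 5.17 and 7.17 in females at 3 weeks. In naive males they were 5.79, 6.68 and 7.04, and after 24 h they were 6.08, 7.02 and 7.28. The 5 males at 3 weeks stood at 6.70, 7.36, 5.95, 7.09 and 7.81. The median of every male group was above that of every female group, the 2 sexes overlapped, and male 3 week replicate 5 was above all females. The SD was 1.17 to 1.75 in the female groups and 0.44 to 0.70 in the male groups.

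The 263 genes moved as a block between females, which follows from their choice in these same animals and is given as a description. In female 24 h replicate 1, the highest female for Avpr1a, all 263 genes were above their group mean, and the genes averaged 0.80 above it on the log2 scale. In female 24 h replicate 7, which had 3.21 normalized counts of Avpr1a, 0 of the 263 genes were above their group mean and the average was -0.73. Female 3 week replicate 8 had 262 genes above the mean and replicate 5, with 2.74 normalized counts of Avpr1a, had 2. Naive females ranged from 7 genes above the mean in replicate 10 to 254 in replicates 4 and 7. Values were centred within groups, so each of the 3 groups held females above and below its mean. In bulk punches, fewer cells of a type and less RNA per cell cannot be told apart.

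**Figure D1:**
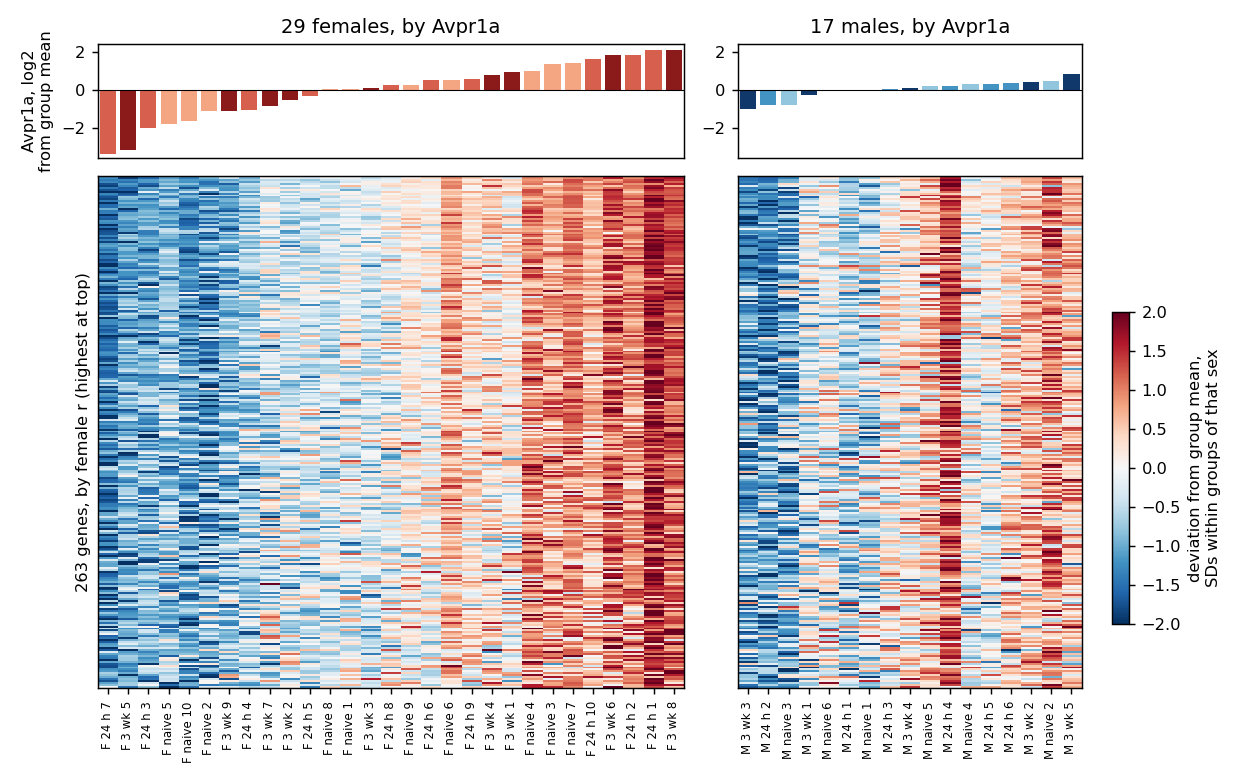
Deviation of each of the 263 genes (rows, ordered by female r) from its group mean, in SDs within groups of that sex, for 29 females (left) and 17 males (right), with libraries ordered by the Avpr1a deviation shown as bars above (log2, group means removed; bar colours mark the groups, light for naive, middle for 24 h and dark for 3 weeks). Female columns pass from blue to red with Avpr1a by choice of the genes. In the males, which were not used for the female r, the 3 libraries lowest in Avpr1a are blue over most rows.

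The gene most like Avpr1a over the 29 females was ENSMOCG00000008843, with an r of 0.93. Its lowest, median and highest log2 levels were 5.18, 6.84 and 8.31 in naive females, 4.80, 6.69 and 8.62 at 24 h, and 4.42, 6.37 and 8.36 at 3 weeks. Its slope was 0.77 log2 units per log2 unit of Avpr1a. ENSMOCG00000021402 came next with an r of 0.92, and moved less, from 8.57 to 10.16 in naive females, 8.55 to 10.61 at 24 h and 8.09 to 10.48 at 3 weeks, a slope of 0.41. Over all 263 genes the female slope ran from 0.04 to 0.91 with a median of 0.20. Most of the genes changed less than Avpr1a itself between the same animals, and 3 of the 263 had a larger SD within female groups than Avpr1a.

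The males, which were not used for the female r, gave a separate look at the same relation. The counts keep the 5 genes with a female mean under 10, which met the minimum mean only through the males. Within male groups all 263 genes had a positive r with Avpr1a, from 0.05 to 0.93, with a median of 0.64. Among the other 14191 tested genes 49.2% had a positive r and the median was -0.01. An r of at least 0.5 was found in 201 of the 263 genes (76.4%) and in 6.10% of the others, and an r of at least 0.72 in 79 (30.0%) and 0.719%. These genes move together, so they are not 263 separate observations.

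**Figure D2:**
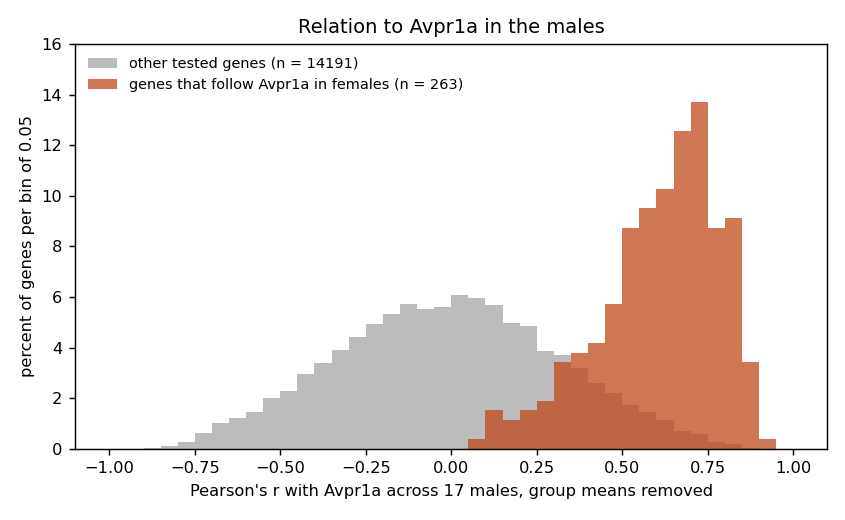
Pearson's r with Avpr1a across 17 males with group means removed, as the percent of genes in each bin of 0.05, for the 263 genes (orange) and the other 14191 tested genes (grey). The 263 genes lie between 0.05 and 0.93 and the other genes are centred near 0.

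Tested gene by gene, 63 of the 263 genes rose with Avpr1a across the males (limma, 17 libraries with the 3 groups as terms, adjusted p under 0.05 over 14454 genes), and 0 fell. The background share of genes called as rising was 0.726%, that is 105 genes, and 0.374% were called as falling. The 263 genes held 60.0% of the genes called as rising, and 24.0% of them were called. At an unadjusted p under 0.05 there were 206 of the 263. Slopes of the 63 genes ran from 0.26 to 1.27 log2 units per unit of Avpr1a, with a median of 0.54; the median over all 263 was 0.32. By ranks 0 passed (limma; 182 at an unadjusted p under 0.05), as did 0 in the 6 males of pattern A (limma; 101) and 2 in the 11 males of pattern B. The count also rested on a few males. Male 3 week replicate 3, male 24 h replicate 2 and naive male replicate 3 were the 3 lowest males for Avpr1a within their groups. With each left out in turn, 3, 4 and 11 of the 263 genes passed, out of 4, 6 and 15 called as rising in all. Without naive male replicate 2 or male 3 week replicate 2 there were 30 and 36, out of 44 and 52. When any 1 male was left out, 260 to 263 of the slopes were still positive.

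The genes with the largest male r were ENSMOCG00000012699 and ENSMOCG00000003881. In naive males the lowest, median and highest log2 levels of ENSMOCG00000012699 were 12.18, 12.56 and 12.73, and in males at 24 h 12.51, 12.96 and 13.18. The 5 males at 3 weeks stood at 12.57, 12.99, 12.20, 12.79 and 13.06, in the same order as their Avpr1a levels. Its male slope was 0.46 (SE 0.05, adjusted p = 0.00103 by limma), and its r was 0.93 in males and 0.84 in females. ENSMOCG00000003881 stood at 11.32, 11.58, 10.95, 11.42 and 11.69 in the same 5 males, again in the order of Avpr1a. Its male slope was 0.54 (SE 0.07, adjusted p = 0.0031 by limma). Over all alternatives the adjusted p by limma of the first gene ran from 0.000144 to 0.761 and of the other from 0.00151 to 0.681. The alternatives include leaving out single males, ranks, a replicate block and the males of each pattern apart. Both genes were picked by their r in these same males, so their slopes and p are no separate test.

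The genes nearest to Avpr1a in females also followed it in males. ENSMOCG00000008843 had lowest, median and highest log2 levels of 5.91, 7.83 and 9.02 in naive males and 7.68, 8.41 and 9.32 in males at 24 h. At 3 weeks the 5 males stood at 8.27, 8.57, 7.00, 8.26 and 8.63, where the low animal was again replicate 3, the lowest for Avpr1a. The male slope was 1.27 (SE 0.23, adjusted p = 0.0151 by limma). For ENSMOCG00000021402 the male slope was 0.57 (SE 0.11, adjusted p = 0.0151 by limma). Its 5 values at 3 weeks were 10.26, 10.60, 9.80, 10.46 and 10.58. The adjusted p ran from 0.0127 to 0.797 for ENSMOCG00000008843 and from 0.00677 to 0.797 for ENSMOCG00000021402 over the alternatives.

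In a few of the genes the relation was weak or not seen in the males. Male r was below 0.3 in 17 of the 263. It was lowest in ENSMOCG00000019117, at 0.05, with a male slope of 0.05 (SE 0.27, adjusted p = 0.973 by limma), and in ENSMOCG00000006939, at 0.12, with a slope of 0.12 (SE 0.28, adjusted p = 0.922 by limma). Both were low genes, with mean normalized counts of 17.4 and 21.3. Their slopes were smaller than the SEs, and Avpr1a spanned a narrower range in males than in females. An absent relation is therefore not shown, and a difference in slope between the sexes was not tested. ENSMOCG00000019117 stood at 4.17, 4.64, 4.94, 4.58 and 4.05 in the 5 males at 3 weeks, where the animal lowest in Avpr1a was the highest. Its slope turned to values between -0.13 and -0.01 in 5 alternatives. Among the 42 genes with a mean under 100 the median male r was 0.55, and 9 were below 0.3; among the 221 genes with a mean of at least 100 it was 0.65, and 8 were below 0.3.

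Most of the genes had a positive r in each group of males taken alone, although 5 or 6 animals give no precise r. In naive males 246 of the 263 genes had a positive r with a median of 0.67, in males at 24 h 257 with a median of 0.65, and in males at 3 weeks 250 with a median of 0.79. Among the other tested genes 47.6%, 47.8% and 50.8% had a positive r in these groups. Of the 263 genes, 229 (87.1%) had a positive r in each of the 3 female and 3 male groups, against 8.17% of the other tested genes. The female side of that count was fixed by the choice. A score of the 263 genes, the mean of their deviations in SD units, had a Pearson's r of 0.83 and a Spearman's rho of 0.84 with Avpr1a over the 17 males. It was 0.90 in the 11 males of pattern B, 0.76 in the 6 males of pattern A, and 0.87 once the 2 males with scores farthest from the median (24 h replicates 2 and 4) were left out. These are descriptions and carry no p.

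**Figure D3:**
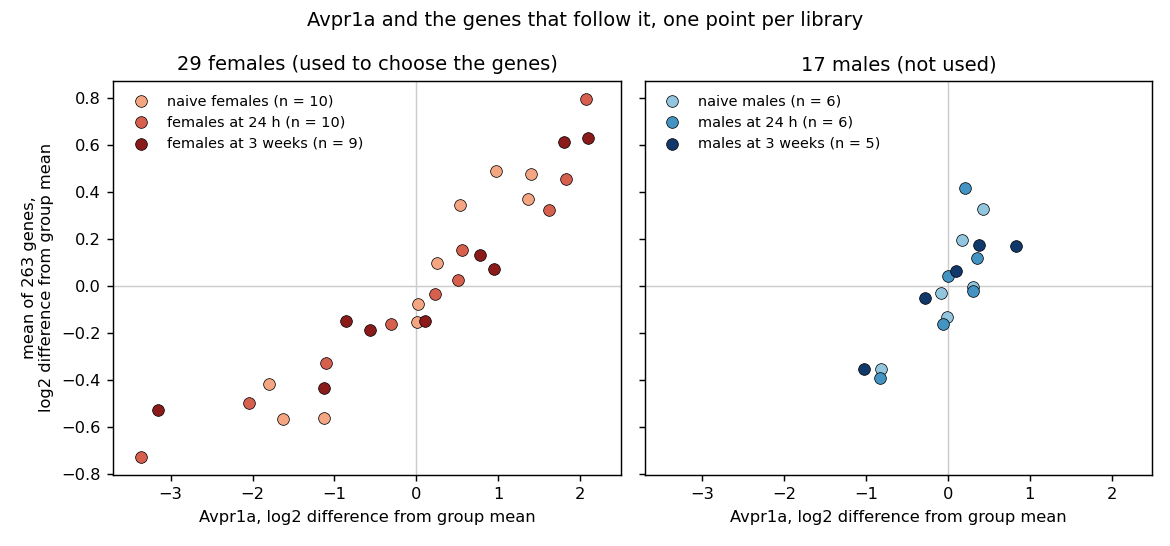
Mean of the 263 genes against Avpr1a in each library, both as the log2 difference from the group mean. Left, 29 females, used for the r that chose the genes. Right, 17 males, not used for that r. The female points run from -3.37 to 2.10 on the Avpr1a axis and the male points from -1.03 to 0.83, and in both panels libraries low in Avpr1a are low in the 263 genes.

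The 263 genes also varied less in males. The SD within groups was larger in females than in males for 247 of the 263 genes (93.9%), with a median ratio of 1.43. For the other tested genes the share was 62.2% and the median ratio 1.08. For Avpr1a the log2 deviations from the group mean covered -3.37 to 2.10 in females and -1.03 to 0.83 in males. The choice favours genes that vary strongly in females, so the female side of these ratios is not independent of it, and the difference in spread was not tested. Per log2 unit of Avpr1a, the median slope was 0.20 in females and 0.32 in males.

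Among themselves the 263 genes were also tied together in the males. The median r over their 34453 pairs was 0.57 in males, with 97.8% of pairs above 0, and 0.74 in females, where the choice made it high. Within groups of females the score had an r of -0.07 with estimated depth, 0.13 with the number of genes above 0, -0.39 with the unlogged total and -0.09 with the position between the normalization patterns. In males these were 0.26, 0.32, -0.33 and -0.34. For Avpr1a itself the r with these properties, in the same order, was -0.19, -0.01, -0.35 and -0.20 in females. In males it was 0.16, 0.19, -0.03 and -0.52, so Avpr1a was more closely tied to the position between the patterns than the score was. The part of these properties in the relation was not tested.

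The level of these genes also differed by sex. Over the 3 conditions, 214 of them (81.4%) passed as higher in males and 0 as lower (limma over all 46 libraries, adjusted p under 0.05), where 10.2% of all tested genes passed as higher and 9.37% as lower. All 263 differences were positive, from 0.01 to 2.48 on the log2 scale, with a median of 0.40 against -0.01 for the other tested genes. These genes move together, so the differences, here and by condition, are not 263 separate observations. The r that chose the genes used only deviations within female groups, but the minimum mean of 10 was taken over both sexes. It let in 5 genes with a female mean under 10, which could pass only by being higher in males, and all 5 are among the 214. Of the 258 genes with a female mean of at least 10, 209 passed as higher in males and 0 as lower, with a median difference of 0.40. Avpr1a was itself higher in males by 1.36 (SE 0.38, adjusted p = 0.00891 by limma), and with the normalization pattern as a term by 1.49 (adjusted p = 0.0935 by limma), where the call was lost. The average of the 263 genes ranged from -0.87 to 0.65 around its mean in female libraries and from -0.15 to 0.76 in male libraries, so the sexes overlapped.

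**Figure D4:**
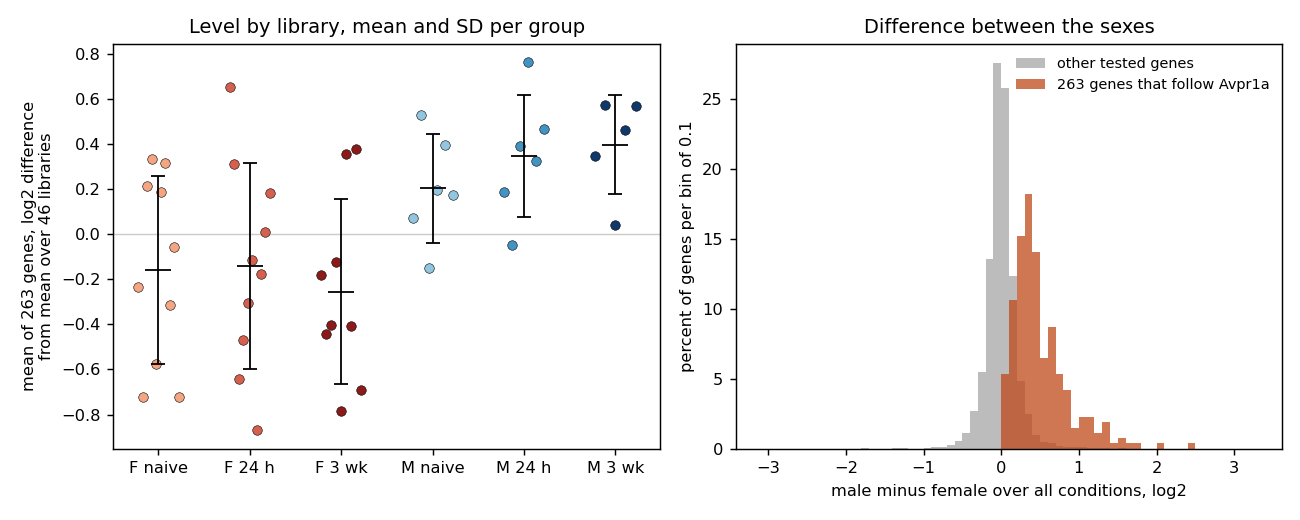
Left, mean of the 263 genes in each library as the log2 difference from the mean over 46 libraries, with the mean and SD of each group; the male groups average 0.20 to 0.40 and the female groups -0.26 to -0.14. Right, male minus female difference over all conditions (log2) as the percent of genes in each bin of 0.1, for the 263 genes (orange), which are all above 0, and the other tested genes (grey).

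The largest difference between the sexes was in ENSMOCG00000013075, a low gene with a mean normalized count of 16.8. Its lowest, median and highest log2 levels were 0, 2.64 and 3.80 in naive females, 0, 2.83 and 5.39 in females at 24 h, and 0, 2.15 and 4.90 in females at 3 weeks. They were 2.24, 4.26 and 5.97 in naive males and 3.72, 4.54 and 6.80 after 24 h, and the 5 males at 3 weeks stood at 4.96, 5.67, 4.81, 5.11 and 5.42. It was listed at 0 in 4 females and in 0 males, and at 3 weeks 4 of the 5 males were above the highest female. The difference over all conditions was 2.48 on the log2(normalized count + 1) scale. It is given as a description, since with mean normalized counts of 6.93 in females and 33.5 in males the gene passed the minimum mean only through the males. ENSMOCG00000015846 differed by 2.10 (SE 0.46, adjusted p = 0.0015 by limma, 0.000181 to 0.207 over the alternatives, the highest with the Avpr1a level as a term). It was also listed at 0 in 4 females and 0 males, and its females reached 5.18, 5.04 and 5.64 in the naive, 24 h and 3 week groups while its males spanned 1.96 to 6.53, so the sexes overlapped. In all, 8 of the 263 genes were listed at 0 in at least 1 library, and each such library was a female.

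**Figure D5:**
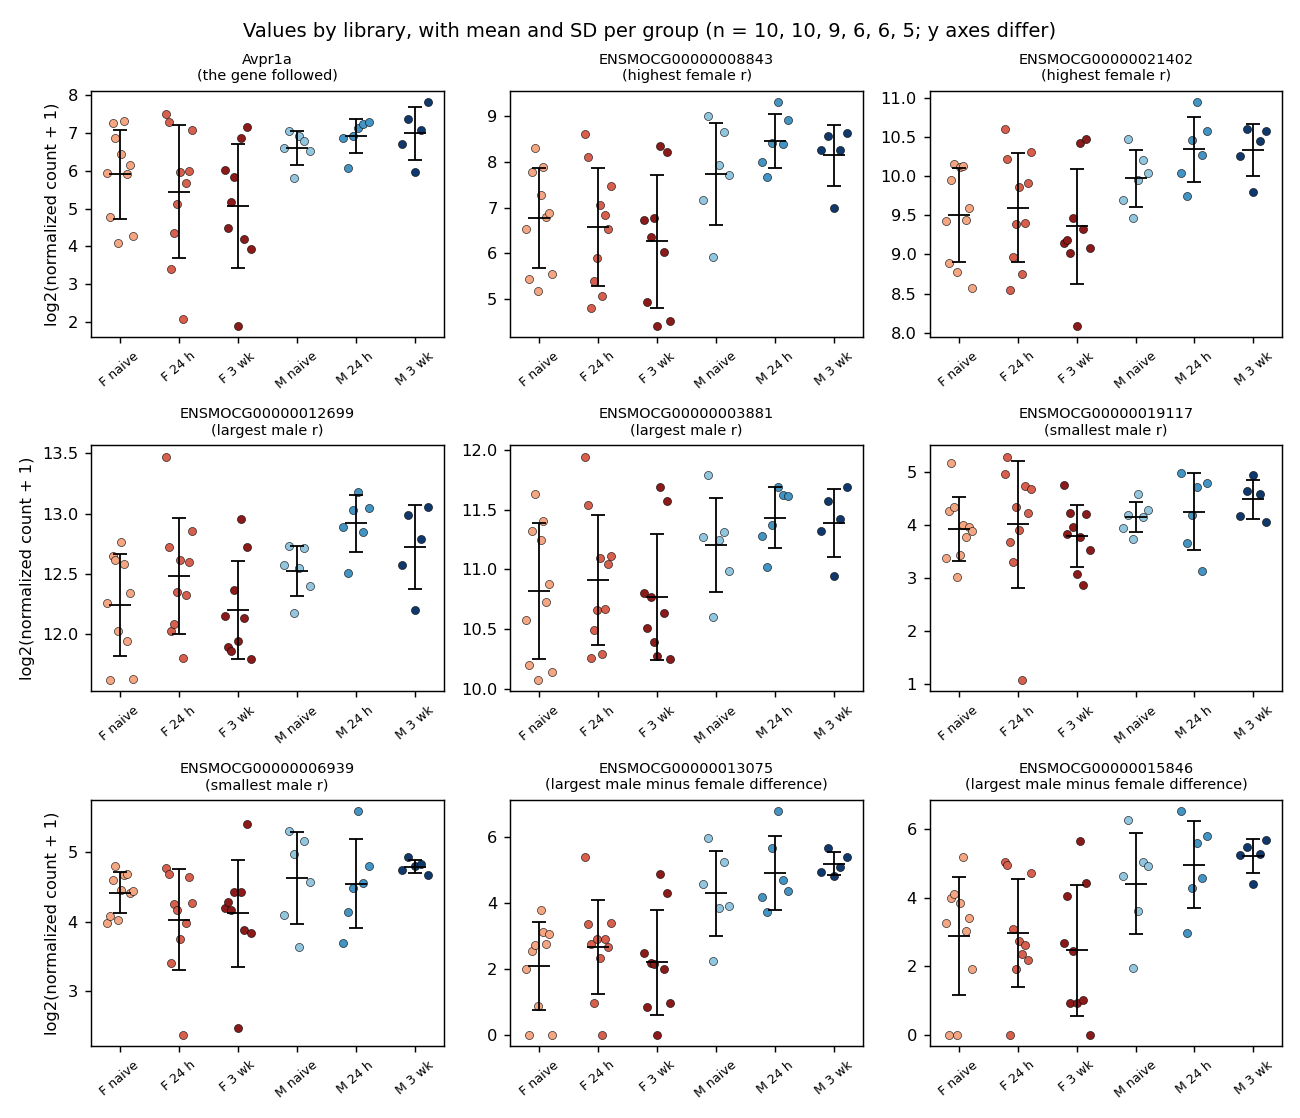
log2(normalized count + 1) of Avpr1a and of 8 of the 263 genes in every library, with the mean and SD of each group (10, 10, 9, 6, 6 and 5 libraries; each panel has its own axis). The spread of the female groups is wide in Avpr1a, ENSMOCG00000008843 and ENSMOCG00000021402, and in these the male medians are above the female medians while the points overlap.

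By condition the median difference was 0.29 in naive animals, 0.39 at 24 h and 0.53 at 3 weeks, with 245, 262 and 262 of the 263 genes higher in males. All counts by condition keep the 5 genes with a female mean under 10, which met the minimum mean only by being higher in males. Single conditions gave fewer calls: 4 of 263 in naive animals, where 1.28% of all genes passed as higher, 0 at 24 h, where 0.00692% passed, and 45 at 3 weeks, where 1.53% passed as higher and 1.66% as lower (limma; 82, 151 and 206 at an unadjusted p under 0.05). In naive animals all males had pattern B and all females pattern A, so within them pattern and sex cannot be told apart, and at 3 weeks 2 of the 9 females shared pattern B with the males. At 24 h all males and all but 1 female had pattern A, and without the 3 females of pattern B the median difference at 24 h was 0.39, with 262 genes higher in males. In naive animals the share called, 1.52% of the 263 genes, was near the 1.28% of all genes, so the count is no trait of this group of genes. The 4 genes called there, named after their values were seen, were ENSMOCG00000018533 (difference 0.78), ENSMOCG00000010974 (0.56), ENSMOCG00000001990 (0.36) and ENSMOCG00000016035 (0.28). With the pattern as a term 0 passed in naive animals. The count at 3 weeks moved with single libraries, from 3 without male 3 week replicate 5 to 112 without female 3 week replicate 6. The calls over all tested genes moved as well, from 44 higher and 59 lower to 468 higher and 488 lower in the same fits.

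With the pattern as a term in the fit, 109 of the 263 genes passed as higher in males over the conditions together, at a median difference of 0.49. This count includes the 5 genes with a female mean under 10. No share over all genes is set beside it, so it cannot be read as a trait of these genes. The term is estimated from the 3 females of pattern B and the other females of their groups. These 3 females stood at 0.29, 0.20 and 0.45 on the scale, short of the 1 at the median male library of pattern B. The fit therefore cannot remove the full difference between patterns in males, and the part of the pattern in the sex difference stays undecided.

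Time with a partner moved almost no tested gene past the threshold, and almost none of the 263, so these low counts are no trait of the group. The 263 genes had a median SD within female groups of 0.40, against 0.22 for the other tested genes. A shift of a given size is therefore harder to call in them. In females 0 of them passed at 24 h against naive animals, where 0.0346% of all genes passed as higher and 0.0692% as lower (limma; at an unadjusted p under 0.05, 7 were higher and 3 lower). The median shift was 0.02, with 146 of 263 genes up. At 3 weeks 0 passed against naive females, where 0% of all genes passed in either direction, and the median was -0.07 with 61 genes up (limma; 0 higher and 4 lower at an unadjusted p under 0.05). Between 3 weeks and 24 h in females the count was also 0 of 263, with a median of -0.10 (limma; background 0%; 0 higher and 8 lower at an unadjusted p under 0.05).

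In males 1 of the 263 genes passed at 24 h against naive animals, where 0.083% of all genes passed as higher and 0.159% as lower. This gene, ENSMOCG00000014489, named after its value was seen, averaged 10.42 ± 0.24 (SD, n = 6) on the log2 scale in naive males and 10.97 ± 0.18 (SD, n = 6) at 24 h, a rise of 0.55 (SE 0.12, adjusted p = 0.0189 by limma). All 6 naive males had pattern B and all 6 males at 24 h pattern A, so pattern and time cannot be told apart there, and with the pattern as a term the call was lost. The call was also lost in a fit of these groups alone and without any one of naive male replicates 1 and 3 and male 24 h replicates 3, 4 and 5. The median change of the 263 genes was 0.13 at 24 h, with 206 up, but 0.01 with 136 up when the pattern was a term, and it was 0.17 at 3 weeks against naive males, with 243 up, where 0 passed (limma; background 0%; 2 higher and 0 lower at an unadjusted p under 0.05). Both comparisons use the same naive males. Between 3 weeks and 24 h in males 0 of the 263 passed (limma; background 0.0208% higher and 0.0484% lower; 1 higher and 2 lower at an unadjusted p under 0.05). The median was 0.03 with 158 up, 0.16 with 213 up when the pattern was a term, and -0.03 to 0.12 without 1 library; all males at 24 h had pattern A and all males at 3 weeks pattern B.

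The change with time was also compared between the sexes. At 24 h the male change exceeded the female change by a median of 0.10 over the 263 genes, and 0 differences passed (limma; background 0% higher and 0.0484% lower; 3 higher and 0 lower at an unadjusted p under 0.05). With the pattern as a term this median turned to -0.02, with 122 of the 263 genes above 0. At 3 weeks the median was 0.24, with 246 of the 263 genes above 0, and 0 passed (limma; background 0%; 4 higher and 0 lower at an unadjusted p under 0.05).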

How the data were processed

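The members, lists and tests were chosen with earlier results of these data known. Total RNA of nucleus accumbens punches was made into poly(A) libraries with random hexamers, per the labels' protocols, with a kit that does not mark strand. The submitters' processing notes name Salmon 0.12, DESeq2, fastp 0.14.1, bcl2fastq 2.20.0.422 and FastQC 0.11.7; the build used is not given in the sources used here. Judging by the values, the authors deposited log2 values of a normalized count plus 1 (0 to 19.9).

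Groups follow the sample titles. Depth was estimated as the unlogged total divided by the value of 1 read, read from the spacing of the lowest values. Factors in values of up to 3 reads were correlated between libraries and clustered into 2 patterns. The 3 females of pattern B lie between the patterns, so their place depends on this step. Whole reads were not recovered, so no count model was run.

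Values were tested as log2(normalized count + 1), a pseudocount of 1, with limma 3.58.1 in R 4.3.3 (trend, robust empirical Bayes), over all 14455 genes with a mean of at least 10, adjusting p by Benjamini-Hochberg within each comparison, and called at 0.05. Group differences came from 1 fit of 6 group means; the slope on Avpr1a came from the males alone, with groups as terms. Correlations used Python 3.11.15 and numpy 2.4.6. Both fits were run on simulated data with seeded effects. The simulated noise was normal, independent between genes and free of normalization patterns, unlike these data. It therefore cannot vouch for the calls made here. Depth limits low genes most, and no intervals from counts are given since counts were not recovered.

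Identifiers carried no names, so those printed are the 2 members with the highest female r, the 2 with the largest and the 2 with the smallest male r, and the 2 with the largest difference between the sexes. The gene lists and cell type markers planned by symbol were not run. Alternatives were no filter, a stricter filter at a mean of 100, pseudocounts of 0.1 and 5, scaling all libraries to 1 total, quantile normalization, array weights, a replicate block, the pattern as a term, fits of only the groups compared, ranks, males of each pattern apart, other r thresholds, and leaving out each library. After seeing the data, Avpr1a as a term and leaving out the 3 females of pattern B were added, as was keeping only members with a female mean of at least 10.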

Additional observations from a re-analysis of the deposited data

Results flagged for a closer look

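Values of Avpr1a, of the 8 named genes and of the mean of the 263 genes were checked in each of the 6 groups, 60 checks in all, for an animal far from the others of its group by Dixon's test. It marked 3, and chance marks about 1 in 20. For Avpr1a, male 24 h replicate 2 stood at 6.08 with the next animal at 6.86. For ENSMOCG00000008843, male 3 week replicate 3 stood at 7.00 with the next at 8.26. Both of these males were the lowest of their group for Avpr1a, and the count of genes rising with Avpr1a in males fell to 4 and to 3 without them. For ENSMOCG00000019117, female 24 h replicate 7 stood at 1.07 with the next animal at 3.29; this female was the lowest of its group for Avpr1a.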

How the results depend on the processing

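The 263 genes themselves numbered 227 to 299 when 1 female was left out, 341 by Spearman's rho and 362 on unlogged values, of which 249 and 235 were among the 263. The count rising with Avpr1a in males, 63, stayed between 54 and 82 under other pseudocounts, filters, scalings, array weights and r thresholds. It was 0 by ranks (limma; 182 at an unadjusted p under 0.05), 0 in the 6 males of pattern A (101), 2 in the 11 males of pattern B, and 3 to 70 when 1 male was left out. The score's r with Avpr1a was 0.79 to 0.90 without 1 male. A term for the pattern could not be added to this fit, since the male groups already hold it.

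The count higher in males over all conditions, 214, was 109 with the pattern as a term, 14 with Avpr1a as a term, 209 of 258 with a female mean of at least 10, and 192 to 228 without 1 library. In naive animals, against 4, it was 2 with no filter, 13 with array weights, 0 with the pattern as a term (limma; 58 at an unadjusted p under 0.05), 1 in a fit of only those groups, 2 without the 3 females of pattern B, and 0 to 11 without 1 library. At 24 h, against 0, it was 11 with array weights and 0 to 15 without 1 library. At 3 weeks, against 45, it was 202 with array weights, 9 with the pattern as a term, 1 with Avpr1a as a term, 5 without the 3 females of pattern B, and 3 to 112 without 1 library. In females at 24 h against naive, 12 genes passed with Avpr1a as a term, 1 without the 3 females of pattern B and 0 to 1 without 1 library. In males at 24 h against naive, 0 passed with the pattern as a term or in a fit of only those groups, and 0 to 1 without 1 library. The other comparisons of group means gave 0 in each alternative. In naive animals 6 passed with Avpr1a as a term, so this term did not lower every count. The genes were chosen for following Avpr1a in 29 of the 46 libraries, and Avpr1a itself was higher in males. Counts and differences with Avpr1a as a term are thus tied to the choice and support nothing. For the other settings the causes were not tested. Counts in this paragraph have no share over all genes beside them and show only how the calls moved.

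Replicate numbers did not pair the animals: of 95 pairs of libraries with the same number in different groups, 14 had deviations that correlated above 0.1 (mean r 0.00). With the replicate block the counts were 0 in the male slopes (147 at an unadjusted p under 0.05, 257 slopes positive), 167 for the sexes over all conditions, 2 in naive animals and 23 at 3 weeks.

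For ENSMOCG00000019117 the male slope was -0.017 with array weights, -0.069 in males of pattern B and -0.13 to 0.31 without 1 male, and with Avpr1a as a term its difference between the sexes was -0.15. For ENSMOCG00000006939 the male slope was -0.077 in males of pattern B.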

Other observations

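Avpr1a was not alone in having many followers across females. By the same rule a tested gene had a median of 4 followers and an upper quartile of 58.5, Avpr1a had 263, and 1235 of the other tested genes (8.54%) had at least as many, up to 747. The 263 genes had a median of 225 followers each.

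The relation in males graded with that in females. The median male r was 0.71 in the 105 genes with a female r of 0.8 or more, 0.59 in the 158 genes from 0.72 to 0.8, 0.51 in the 313 genes from 0.6 to 0.72, and 0.12 in the 2224 genes from 0.2 to 0.4. The 163 genes with a female r of -0.72 or below had a median male r of -0.61.

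In principal components of all tested genes, computed within each sex with group means removed, the score of the 263 genes lay mostly along the second component. Its r with that component was 0.76 in females, where the component held 12.01% of the variance, and 0.97 in males, where it held 13.2%. With the first component, which held 18.9% and 18.1%, r was 0.59 in females and 0.04 in males.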
